A study of Mus musculus with 21 samples.

Results

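The genes described here are the SR and hnRNP splicing factor genes, taken as the protein-coding RefSeq genes of the mouse build GRCm38 whose symbol starts with Srsf and a digit or with Hnrnp and a letter. The rule found 32 genes among 21887 protein-coding genes, and it used no measured value. The chromatin came from C2C12, a mouse myoblast line that forms myotubes when it is made to differentiate, and the mark was H3K36me3, trimethylation of histone H3 at lysine 36, measured by ChIP-seq. Wild-type (WT) cells were sampled at day 0, and at day 1 and day 5 in control medium or under methionine restriction, with 2 libraries in each of these 5 groups. Setd2 knockout (KO) cells, which by their label lack the gene of an enzyme that places this mark, were sampled as 2 lines, KO line 1 and KO line 2, with 1 library per line in each of the same 5 conditions. The groups share the parental line and the antibody; the labels give neither the way the knockout was made nor whether each line is a single clone, and day 0 has no restricted sample.

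H3K36me3 is placed over transcribed gene bodies by SETD2, which travels with elongating RNA polymerase II and uses S-adenosylmethionine, a product of methionine, as methyl donor. SR proteins bind exonic sequences of pre-mRNA through RNA recognition motifs and recruit the splicing machinery through arginine and serine rich domains, whereas many hnRNPs bind pre-mRNA and silence splice sites. Both families shape alternative splicing in differentiating muscle, and their own genes are expressed in nearly all cell types.

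Each library was available as a list of peaks, and the quantity used throughout is cover, the percent of a gene's annotated body that lies inside merged peaks. The 10 WT lists held 63423 to 87398 peaks over 110 to 183 Mb, KO line 1 held 791 to 64530 peaks over 0.307 to 74.1 Mb, and KO line 2 held 127 to 13880 peaks over 0.00820 to 7.13 Mb. The lowest count in each line was at day 1 under restriction. The lists carry no read depth, so counting errors of single values are unknown, and Drosophila chromatin was added as a spike-in without any scale for it in the lists, which cannot show the Setd2 deletion itself either. Whether peaks were called after scaling by the spike-in is not given in the sources used here; such a scaling would change cover in every library, and its part in the differences in cover below was not tested. Among the markers, all 6 differentiating muscle genes were marked in both WT control libraries of day 5 and 2 of 6 in both restricted libraries, with summed cover of 547 to 551 against 202 to 234. The summed cover of the 5 myoblast genes was 239 to 265 at day 0, 234 to 251 in control medium at day 5 and 117 under restriction, and at day 1 the differentiating muscle genes had 304 to 312 in control medium and 70.1 to 98.7 under restriction, where 4 and 5 of 6 stood at 0, and the myoblast genes 243 to 268 against 114 to 122. The muscle markers thus moved with the medium on both days; their part in the results below was not tested. Among markers of other cell types, the 3 adipocyte genes, the blood gene Ptprc, 2 of 3 neuron genes (Snap25 and Syt1) and 1 of 3 fibroblast genes (Lum) stood at 0 in all WT libraries, and none of those lists held a marked gene in WT. The fibroblast gene Dcn moved with day and medium, at 0 at day 0, 34.7% and 26.0% in control medium at day 5 and 12.8% and 11.2% under restriction, and Pdgfra reached at most 3.23%; their part was not tested either.

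In WT myoblasts at day 0 most SR and hnRNP genes were marked over the greater part of their length. Of the 31 members of at least 2 kb, 28 and 25 had cover of at least 50% in the 2 day 0 libraries, called marked here, and their share of 90.3% and 80.6% stood beside 57.4% and 53.0% of the 9514 genes tested. A gene was tested if it was protein-coding, at least 2 kb long and had a mean cover of at least 5% over the 10 WT libraries, and 30 members passed. Hnrnpa1l2-ps2, with a body of 1.165 kb the member under 2 kb, was listed at 0 in all 20 libraries. The gene that failed the filter, Srsf12, which encodes an SR protein of restricted expression, was also listed at 0 in all 20 libraries over its 24.4 kb. The tested members' bodies ran from 2.678 kb at Hnrnpa0 to 39.2 kb at Hnrnpm, with a median over the 31 members of 11.3 kb, against 22.6 kb for all genes tested.

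The median cover of the 30 tested members was 80.7% and 69.6% in the day 0 libraries, 70.6% and 72.0% in control medium at day 1, and 74.9% and 74.6% in control medium at day 5. Over all genes tested the same libraries had medians of 57.2% and 52.9%, 45.2% and 47.9%, and 54.7% and 50.6%. Under restriction the members' median was 49.1% and 41.3% at day 1 and 57.2% and 56.0% at day 5, below every WT library of day 0 or control medium. In bulk chromatin, a mark present in fewer cells and a weaker mark in each cell cannot be told apart.

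**Figure D1:**
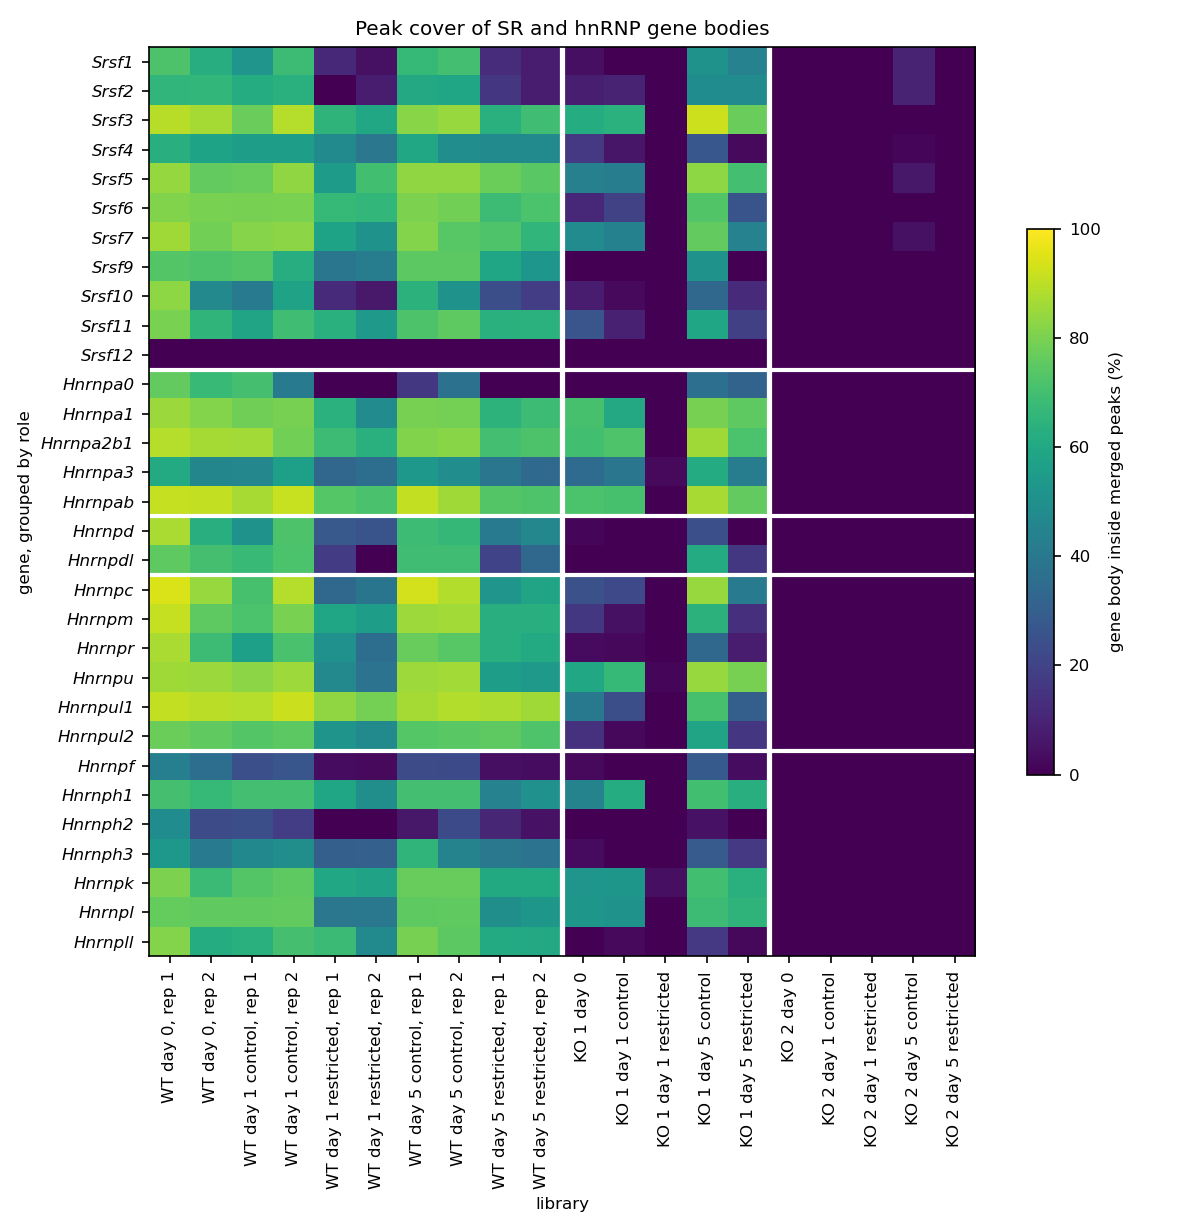
Cover, the percent of the gene body inside merged peaks, of the 31 members of at least 2 kb (vertical axis, grouped by role, white lines between roles) in each of the 20 libraries (horizontal axis: 10 WT, then 5 of KO line 1 and 5 of KO line 2), as colour from 0 to 100%. The restricted WT columns are darker than the control columns for Srsf1, Srsf2, Hnrnpa0 and Hnrnpdl, and KO line 2 holds cover above 0 on 5 genes at day 5 in control medium.

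The 3 members with the highest mean cover over the 10 WT libraries were Hnrnpul1, Hnrnpab and Hnrnpa2b1. Hnrnpul1, which encodes a relative of the nuclear matrix protein hnRNP U, had cover of 90.8% and 89.6% at day 0, 88.9% and 91.9% in control medium at day 1, 83.4% and 79.0% under restriction at day 1, 86.4% and 88.3% in control medium at day 5 and 87.7% and 85.8% under restriction at day 5. Its lowest pair was day 1 under restriction, and the lowest of its other WT libraries was at 85.8%. Hnrnpab, an RNA-binding protein gene whose body overlaps another gene over 46.7% of its length, had 91.2% and 90.7% at day 0, 86.8% and 91.6% then 90.9% and 85.6% in control medium at days 1 and 5, and 73.5% and 71.4% then 73.2% and 72.5% under restriction. Hnrnpa2b1, which encodes a splicing repressor and RNA transport factor, had 89.0% and 86.6% at day 0, 86.2% and 78.8% then 81.1% and 82.2% in control medium, and 68.7% and 63.5% then 70.0% and 72.2% under restriction. For both of these genes all 4 restricted libraries lay below all 6 other WT libraries.

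Beside Srsf12, the lowest 2 members in WT were Hnrnph2 and Hnrnpf, which encode G-tract-binding splicing factors of the F/H type. Hnrnph2 had cover of 48.5% and 22.7% at day 0, 24.1% and 18.2% in control medium at day 1, 0 in both restricted libraries of day 1, 6.48% and 22.4% in control medium at day 5 and 10.7% and 5.07% under restriction at day 5. Its day 5 groups overlapped, and its day 1 groups did not. Hnrnpf had 43.0% and 36.1% at day 0, 24.6% and 26.8% in control medium at day 1 and 23.0% and 22.4% at day 5, with 3.42% and 2.57% under restriction at day 1 and 4.11% and 3.22% at day 5. The 3 sets of values, day 0, control and restricted, did not overlap for Hnrnpf.

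Methionine restriction at day 1 lowered the cover of SR genes and of hnRNP genes of every type in WT cells. Cover was compared by limma on the 10 WT libraries, with Benjamini-Hochberg adjustment over the 9514 genes and a threshold of 0.05. By this test 23 of 30 members were lower and 0 were higher. Of all 9514 genes tested, 36.0% were lower and 226 genes were higher. At an unadjusted p under 0.05 the members' counts were 28 and 0, beside 43.5% of all genes tested that were lower. The members' median difference was -21.0 points of cover, against -7.99 for all genes tested, and all 30 differences were negative. Both restricted libraries lay below both control libraries for 28 of 30 members, against 59.6% of all genes tested; Srsf11 and Hnrnpll overlapped.

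After each library's median over the genes tested was subtracted, the split at day 1 was 10 lower and 0 higher, beside 13.1% of all genes tested that were lower and 37.0% that were higher on that scale. The members' median difference became -5.77 points, against 7.20 for all genes tested. Of the 13 calls lost on that scale, Srsf6 and Hnrnpul1 had differences above 0, at 2.32 and 6.01 points; the others were Srsf3, Srsf5, Srsf9, Hnrnpa1, Hnrnpa2b1, Hnrnpab, Hnrnpd, Hnrnpf, Hnrnph1, Hnrnpk and Hnrnpm. Of the 23 calls, 16 held when each WT library of the day was left out in turn; the 7 that did not were Hnrnpd, Hnrnph1, Hnrnpk, Hnrnpm, Hnrnpul1, Srsf10 and Srsf5. The 9 that held under every alternative run were Hnrnpa0, Hnrnpc, Hnrnpdl, Hnrnpl, Hnrnpu, Hnrnpul2, Srsf1, Srsf2 and Srsf7. The labels do not say that the 2 libraries of a group came from separate cultures, so these p-values measure the spread between libraries, which may be technical.

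Of the SR genes, 8 of 10 tested fell at day 1: Srsf1, Srsf2, Srsf3, Srsf5, Srsf6, Srsf7, Srsf9 and Srsf10, of which Srsf1, Srsf2, Srsf7 and Srsf10 were also called with each library's median subtracted. Beside this count and those of the other types below stands the 36.0% of all genes tested that were lower at day 1. Srsf2 (chr11:116849897-116853675), which encodes SC35, a factor that marks nuclear speckles, had cover of 65.9% and 66.0% at day 0, of 61.9% and 63.5% in control medium at day 1 and of 0 and 7.81% under restriction. Its fitted difference was -58.8 points (SE 4.31, limma adjusted p = 5.15e-05), and 38.8% of its body overlaps another gene. Srsf1 (chr11:88046499-88053757), which encodes the founding SR protein, a regulator of splice site choice, had 72.2% and 62.2% at day 0, 52.3% and 68.7% in control medium and 11.01% and 4.52% under restriction, a difference of -52.7 points (SE 6.13, limma adjusted p = 0.000366). In both genes the restricted libraries stood far below the control libraries, as they did for Srsf10, whose product represses splicing when dephosphorylated. Srsf10 had 83.0% and 47.2% at day 0, and at day 1 41.2% and 57.8% against 12.2% and 6.68%, and its call was lost without the second control library (limma adjusted p = 0.122), the first restricted library (0.0581) or the second restricted library (0.110). The other 5 SR genes that fell differed by -12.9 points at Srsf6 to -27.6 at Srsf7, while Srsf4 (-12.1 points, limma adjusted p = 0.0829) and Srsf11 (-5.19 points, 0.522) did not pass. With peaks of a −log10 q of at least 3 alone, the difference of Srsf6 was -28.5 points, so its size depended on that threshold.

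Of the hnRNP A/B type, 4 of 5 fell at day 1, and Hnrnpa3 (-16.8 points, limma adjusted p = 0.0531) did not pass. Hnrnpa0 (chr13:58125879-58128556), the shortest tested member, which encodes an AU-rich element binding protein, had 70.4% and 40.7% in control medium and 0 in both restricted libraries. Its difference was -55.6 points (SE 9.68, limma adjusted p = 0.00265), and its 2 control libraries lay farther apart than those of any other member. Hnrnpa1, a repressor of exon inclusion, went from 78.5% and 79.4% to 63.8% and 48.3%, and Hnrnpab and Hnrnpa2b1, with the values given above, fell by 16.7 and 16.4 points. Both hnRNP D genes, which encode AU-rich element binding proteins, fell. Hnrnpdl (chr5:100033577-100039936) had 75.2% and 70.7% at day 0, 67.9% and 71.9% in control medium and 17.7% and 0 under restriction, a difference of -61.0 points (SE 6.57, limma adjusted p = 0.000252) and the widest among the members at this day. Hnrnpd went from 51.2% and 72.1% to 27.9% and 25.9%; 38.0% of its body and 14.3% of that of Hnrnpdl overlap other genes.

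Of the hnRNP C, R, M and U type, 5 of 6 fell at day 1. Hnrnpc, which encodes a core protein of hnRNP particles that binds uridine tracts, went from 70.8% and 88.7% to 33.2% and 38.8%. Hnrnpu, whose product binds chromatin-associated RNA, went from 82.5% and 85.5% to 47.2% and 37.9%, a difference of -41.4 points (SE 3.63, limma adjusted p = 0.000102). Hnrnpr (-20.4 points, limma adjusted p = 0.0631) did not pass, and Hnrnpul1 showed the smallest change of the type that passed, -9.17 points (SE 2.28, adjusted p = 0.0135). Of the F/H, K and L type 4 of 7 fell, and Hnrnpl, a CA-repeat-binding splicing regulator, had the largest change of these, from 75.6% and 75.9% to 39.6% and 40.2%. Hnrnph2 (limma adjusted p = 0.0675), Hnrnph3 (0.0723) and Hnrnpll (0.400) did not pass.

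**Figure D2:**
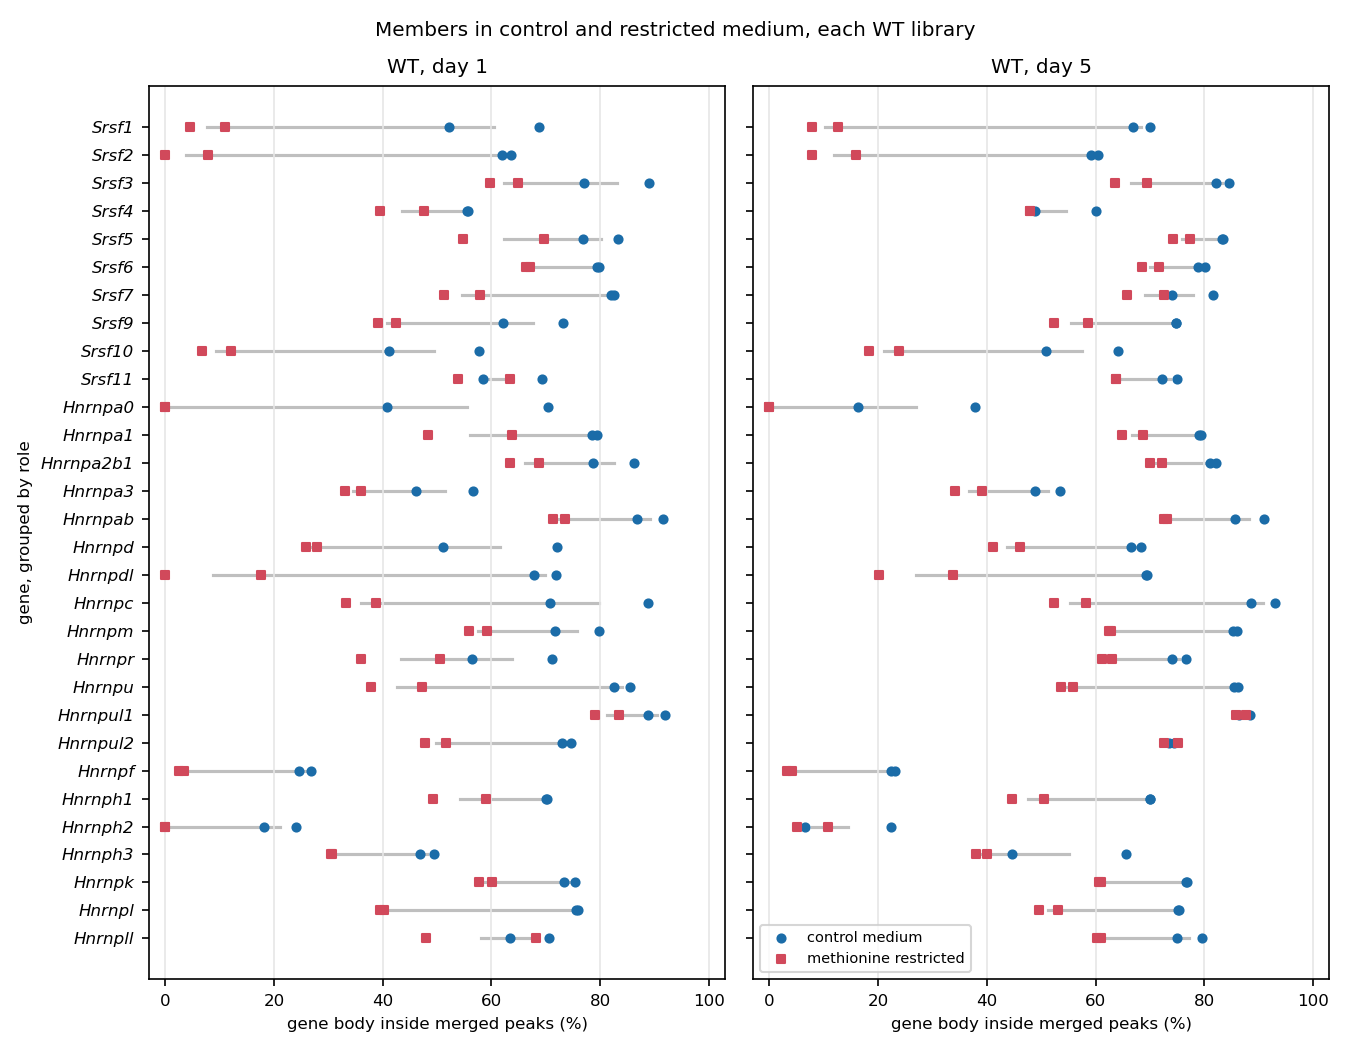
Cover (horizontal axes, percent of the gene body inside merged peaks) of the 30 tested members (vertical axis, grouped by role) in WT cells at day 1 (left) and day 5 (right); circles are the 2 control libraries, squares the 2 restricted libraries, and grey lines join their means. The squares lie left of the circles for 28 members at day 1 and 27 at day 5, beside 59.6% and 65.4% of all genes tested. At day 5 they overlap the circles for Hnrnph2, Hnrnpul1 and Hnrnpul2. After each library's median was subtracted, 3 members were higher at day 5, beside 39.5% of all genes tested.

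At day 5, before each library's median was subtracted, restriction again lowered members of every type. The count of calls was nearer to the background than at day 1. By limma with Benjamini-Hochberg adjustment 17 of 30 members were lower and 0 were higher. Of all genes tested, 41.5% were lower and 4.32% were higher. At an unadjusted p under 0.05 the members' counts were 21 and 0, beside 46.8% of all genes tested that were lower. The median difference was -16.4 points for the members and -9.16 for all genes tested, all 30 differences were negative, and the libraries did not overlap for 27 of 30 members against 65.4% of all genes tested. After each library's median was subtracted the split was 5 lower, Srsf1, Srsf2, Hnrnpdl, Hnrnpc and Hnrnpu, and 3 higher, Srsf4, Hnrnpul1 and Hnrnpul2, beside 14.7% of all genes tested that were lower and 39.5% that were higher on that scale. None of the A/B genes and none of the F/H, K and L genes was called lower on that scale. The members' median difference became 0.30 points, against 7.52 for all genes tested. The calls of the other 12 members were lost; of these, Srsf6, Hnrnpa2b1, Hnrnpab and Hnrnpk had differences above 0 there, and the other 8 ran from -19.8 points at Srsf10 to -0.12 at Srsf3. Without the first restricted library 11 members were lower, and without each of the other libraries of the day in turn 12 or 13. Of the 17 calls, 10 held when each of these libraries was left out, and Srsf1, Srsf2, Hnrnpdl, Hnrnpc and Hnrnpu held under every alternative run. The 7 lost without at least 1 library were Hnrnpa0, Hnrnpa2b1, Hnrnpk, Srsf10, Srsf3, Srsf6 and Srsf9.

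Among the SR genes, Srsf1 had cover of 66.8% and 70.0% in control medium and of 12.7% and 7.91% under restriction at day 5, a difference of -58.1 points (SE 6.13, limma adjusted p = 0.00017). Srsf2 had 60.4% and 59.2% against 15.9% and 7.75%, a difference of -48.0 points (SE 4.31, limma adjusted p = 7.36e-05). These 2 genes thus had the lowest restricted values of the tested SR genes at this day, with replicate ranges far from the control ranges. Srsf10 had 64.2% and 50.9% against 23.9% and 18.3%, a difference of -36.5 points (SE 10.9, limma adjusted p = 0.0253); leaving out any 1 of its 4 libraries took the adjusted p to between 0.0506 and 0.157. Srsf3, Srsf6 and Srsf9 fell by 16.8, 9.38 and 19.3 points. Srsf4, Srsf5, Srsf7 and Srsf11 differed by -6.61 to -9.87 points and did not pass.

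Among the hnRNP genes, Hnrnpdl had 69.2% and 69.5% in control medium and 20.1% and 33.8% under restriction at day 5, a difference of -42.4 points (SE 6.57, limma adjusted p = 0.00118). Hnrnpc went from 93.1% and 88.6% to 52.3% and 58.3%, and Hnrnpu from 85.5% and 86.2% to 55.8% and 53.7%. Hnrnpa0 had 16.2% and 37.8% against 0 in both restricted libraries, a difference of -27.0 points (SE 9.68) at the edge of the threshold (limma adjusted p = 0.0499, and 0.0045 to 1 over the alternatives). By type, 6 of 10 SR genes, 3 of 5 of the A/B type, 1 of 2 of the D type, 3 of 6 of the C, R, M and U type and 4 of 7 of the F/H, K and L type were lower. Beside these counts stands the 41.5% of all genes tested that were lower at day 5, and each type holds few genes. Hnrnpa1, Hnrnpa3, Hnrnpd, Hnrnpr, Hnrnpul1, Hnrnpul2, Hnrnph2, Hnrnph3 and Hnrnpll did not pass.

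The effect of restriction differed between days for 1 member, Hnrnpul2, which encodes another relative of hnRNP U; 1.62% of all genes tested had a difference in this direction that passed. Its cover was 77.5% and 75.6% at day 0, and at day 1 it was 73.1% and 74.7% in control medium and 51.6% and 47.8% under restriction, a fall of 24.1 points (SE 3.01, limma adjusted p = 0.000499). At day 5 it was 73.6% and 74.4% in control medium and 75.1% and 72.5% under restriction, with overlapping libraries. The day 5 effect minus the day 1 effect was 23.98 points (SE 4.25, limma adjusted p = 0.0148), and the median of this quantity was 6.52 points over the members and -0.37 over all genes tested. The members' median was 10.04 without the first and 2.95 without the second control library of day 1, 3.22 without the second restricted library of day 1, and 3.48 with lists matched in length. The call was lost without either control library of day 1 (adjusted p = 0.0564 and 0.0676), without the first control library of day 5 (0.0579) and without either restricted library of day 5 (0.079 and 0.0562). Hnrnpul1 had day 5 values of 86.4% and 88.3% against 87.7% and 85.8%, but for it the difference between days did not pass.

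Between day 0 and the differentiating cells in control medium, few members changed. From day 0 to day 1 limma called 1 member lower, Hnrnpf, beside 5.67% of all genes tested. From day 0 to day 5 it called 2 lower, Hnrnpa0 and Hnrnpf, beside 15.6%. In both comparisons 0 members were higher, against 92 genes to day 1 and 1157 to day 5 among the 9514 tested. At an unadjusted p under 0.05, 0 members were again higher, and 1 and 3 were lower, beside 22.9% and 21.6% of all genes tested. Hnrnpf, with the values given above, fell by 13.9 points to day 1 (SE 2.92, limma adjusted p = 0.0302) and by 16.8 to day 5 (adjusted p = 0.00303). Its day 5 call was lost at a −log10 q of at least 3 (limma adjusted p = 0.134) and with lists matched in length (0.257). With the compared libraries alone it was lost too (0.0669). Its day 1 call was lost with each library's median subtracted (-5.41 points, adjusted p = 0.304), without the first day 0 library (adjusted p = 0.0815), and without either day 1 library (0.159 and 0.103), and without the second day 0 library 3 members were called. Hnrnpa0 went from 75.9% and 67.8% at day 0 to 16.2% and 37.8% at day 5, a fall of 44.9 points (SE 9.68, limma adjusted p = 0.00921), which was lost without the first day 5 library (adjusted p = 0.0759). The median difference of the members was -4.40 points to day 1 and -2.61 to day 5, against -5.31 and -1.17 for all genes tested. The members' median to day 1 was -1.21 without the first day 0 library and -1.05 without the first day 1 library. That to day 5 was 0.37 without the first day 0 library, -5.66 without the second and -0.54 without the second day 5 library. These comparisons and those under restriction share control libraries.

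The mark lay toward the 3′ end of the members, and under restriction it began farther from the gene start, as it did over all genes tested. For the 28 tested members with a known strand, the mean cover upstream of the gene's midpoint was 59.9% and 53.0% at day 0, and downstream of it 94.6% and 83.5%. At day 5 the upstream part had 49.1% and 48.1% in control medium and 26.0% and 25.6% under restriction, and the downstream part 88.6% and 87.9% against 70.0% in both restricted libraries. At day 1 the upstream part had 46.0% and 47.5% against 25.7% and 22.7%, and the downstream part 84.7% and 90.7% against 57.8% and 54.0%. The same means over 7711 tested genes with a strand were 38.4% and 36.1% upstream and 68.9% and 64.9% downstream at day 0. At day 1 they were 29.8% and 31.4% against 22.2% and 18.7% upstream, and 60.1% and 62.2% against 52.0% and 46.1% downstream. At day 5 they were 37.2% and 34.2% against 22.6% and 23.1% upstream, and 66.4% and 63.7% against 54.2% and 55.0% downstream. The first covered base of a member lay at a median of 1.68 to 2.21 kb from the gene start over the 6 WT libraries of day 0 and control medium, and at 3.80 to 4.37 kb over the 4 restricted WT libraries, which leave out members with no cover. Over the tested genes with a strand and any cover, these medians ran from 2.78 to 3.52 kb and from 5.15 to 5.70 kb. The nearest such base in any WT library was 0.546 kb from the start.

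**Figure D3:**
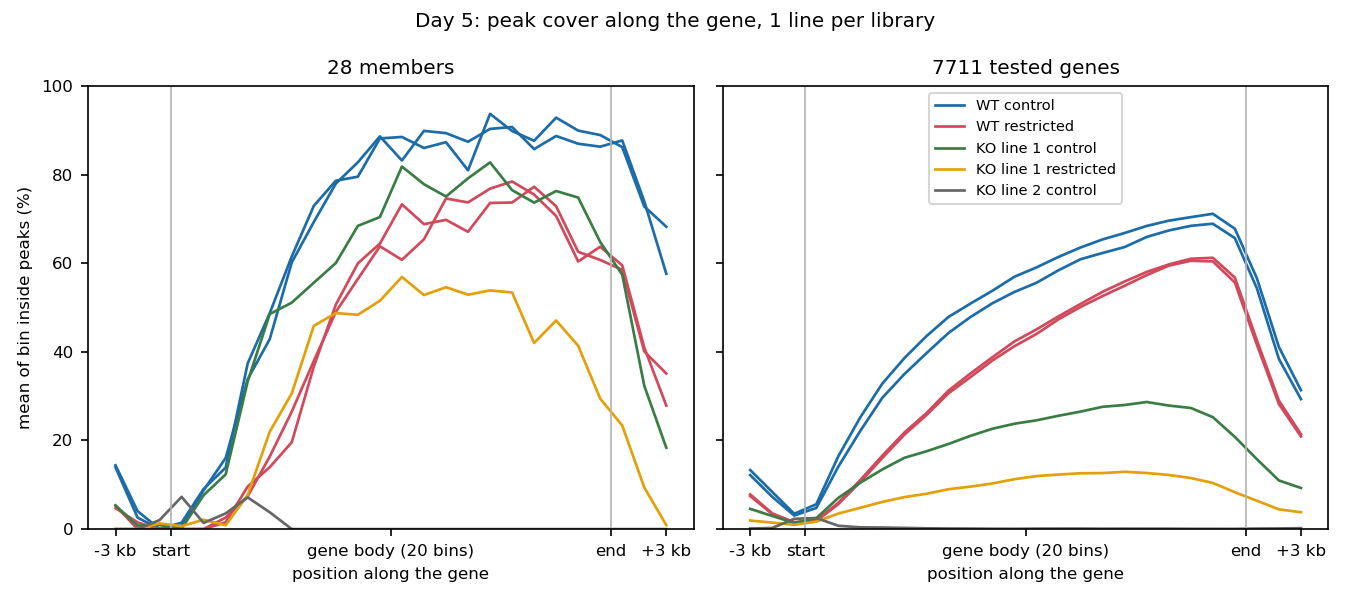
Mean cover at day 5 (vertical axes, percent of each bin inside merged peaks) from 3 kb before the gene start to 3 kb after its end (horizontal axes, gene bodies scaled to 20 bins), for 28 members (left) and 7711 tested genes (right), 1 line per library. In WT the members' lines rise from near 0 at the start to a plateau, the restricted lines rise later, and the line of KO line 2 in control medium is above 0 near the start alone.

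How the restriction difference went with the length of the gene body depended on the measure. Between the difference and log2 length at day 1, Pearson's r was 0.406 and Spearman's rho 0.334 over the 30 members, against 0.42 and 0.409 over all 9514 genes, the loss being wider in shorter genes, so on this measure the members were close to all genes. At day 5 r was 0.199 and rho 0.071 over the members, against 0.182 and 0.155. Split at 10 kb, short and long members were closer to each other than short and long genes overall. The 13 tested members of up to 10 kb had a median restriction difference of -22.9 points at day 1 and the 17 longer ones -20.4, against -20.0 and -5.63 for all genes tested split at the same length. At day 5 the medians were -15.4 and -16.8 points for the members and -15.7 and -7.75 for all genes tested. These are descriptions across genes of the same libraries, which are not independent replicates. Among the short members the losses differed: Srsf2, with 3.779 kb, and Hnrnpa0 lost nearly all cover at day 1, whereas Srsf5, with 5.013 kb, kept 54.8% and 69.7%.

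In KO line 2 the members carried almost no cover, while KO line 1 kept it on a subset. Cover was 0 on all members in 4 of the 5 KO line 2 libraries, and at most 10.2% in the fifth, day 5 in control medium. In KO line 1 the median over the 30 members was 16.3% at day 0, 9.50% and 0 at day 1 without and with restriction, and 61.6% and 31.2% at day 5 likewise; over all genes tested it was 8.39% in control medium at day 5 and 0 in the other 4. With peaks of a −log10 q of at least 3 alone, the members' median was 0 at day 0, 0.49% and 0 at day 1, and 56.3% and 1.29% at day 5. Marked members numbered 7, 8, 0, 20 and 9 of 31 in these 5 libraries, beside 2.14%, 1.65%, 0, 16.8% and 6.46% of all genes tested. Both KO lines lay below both WT libraries in all 5 conditions for 14 of 30 members, beside 75.3% of all genes tested, and for 16 of 30 and 77.4% when the libraries of day 1 under restriction were left out, a choice made after the data were seen. At a −log10 q of at least 3 it was 13 of 30 members beside 49.0% of all genes tested, which is near the members' share. With 1 library per line and condition none of these differences has a replicate check, and the SETD2 protein was not measured in the data used here.

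The 3 members with the highest mean over the 5 libraries of KO line 1 were Hnrnpab, Hnrnpa2b1 and Srsf3. Hnrnpab had 71.5% at day 0, 70.8% in control and 0 in restricted medium at day 1, and 86.7% and 76.0% in control and restricted medium at day 5. Hnrnpa2b1 had 69.9%, 72.6%, 0, 85.7% and 71.7%, and Srsf3, whose product is the smallest SR protein, had 61.8%, 63.7%, 0, 92.3% and 77.0% in the same order. In WT, Srsf3 had 89.4% and 86.6% at day 0, 77.1% and 89.1% then 82.1% and 84.5% in control medium at days 1 and 5, and 64.8% and 59.7% then 63.6% and 69.4% under restriction. All 3 were marked in KO line 1 in the 4 libraries other than the restricted one of day 1, where the list held peaks on 3 members alone, Hnrnpa3 (2.65%), Hnrnpk (4.06%) and Hnrnpu (1.37%). At the other end, Srsf9, Hnrnpdl and Hnrnpa0 had 0 at day 0 and at day 1 in KO line 1, as Hnrnph2 did, against WT day 0 means of 72.7%, 73.0%, 71.9% and 35.6%. By type, the median over members at day 0 was 69.9% for the 5 A/B genes, 20.4% for the 6 of the C, R, M and U type, 11.4% for the 11 SR genes, 2.98% for the 7 of the F/H, K and L type and 0.72% for the 2 of the D type.

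At day 5 KO line 1 lay below WT on most members and above it on part of them. In control medium its cover was below both WT libraries for 22 of 30 members, beside 89.1% of all genes tested, and under restriction for 17 of 30, beside 82.8%. In control medium it was above both WT libraries for 5 of 30 members, Hnrnpa1, Hnrnpa2b1, Hnrnpa3, Hnrnpf and Srsf3, beside 5.94% of all genes tested. Under restriction it was above both for 11 of 30, Hnrnpa0, Hnrnpa1, Hnrnpa3, Hnrnpab, Hnrnph1, Hnrnpk, Hnrnpl, Hnrnpu, Srsf1, Srsf2 and Srsf3, beside 9.99%. At day 0 and at day 1 it was above both WT libraries for none. Compared with its own day 0 library, the day 5 control library of KO line 1 was higher for all 30 members, with a median of 27.2 points, against 6.34 over all genes tested.

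Srsf1 and Srsf2, which lost most of their cover under restriction in WT, were among the members that differed little between media in KO line 1 at day 5. Srsf1 had 51.0% in control and 44.3% in restricted medium there, against WT restricted values of 12.7% and 7.91%. Srsf2 had 48.8% and 48.1%, against 15.9% and 7.75%. Hnrnpul1 and Hnrnpul2, which did not pass in WT at day 5, were lower in the restricted than in the control library of KO line 1, at 30.4% against 71.0% and at 15.97% against 58.4%. Markers of other cell types differed between the same 2 libraries, with summed cover from control to restricted medium of 7.81 and 47.6 for the 3 fibroblast genes (all of it on Dcn), 0 and 26.7 for the 3 adipocyte genes (all of it on Cebpa) and 3.61 and 7.37 for the 3 neuron genes; 2 genes of each of these lists stood at 0 under restriction. The 6 differentiating muscle genes had 189 and 148, and the 5 myoblast genes 88.7 and 50.8; the part of these markers in the difference was not tested. The KO line 1 difference between media was negative for all 30 members, with a median of -17.5 points against -4.55 over all genes tested. It ran from -51.2 points at Srsf9, from 51.2% to 0, to -0.69 at Srsf2. The difference between WT and KO line 1 in the effect of restriction was not tested, since KO line 1 has 1 library in each medium.

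**Figure D4:**
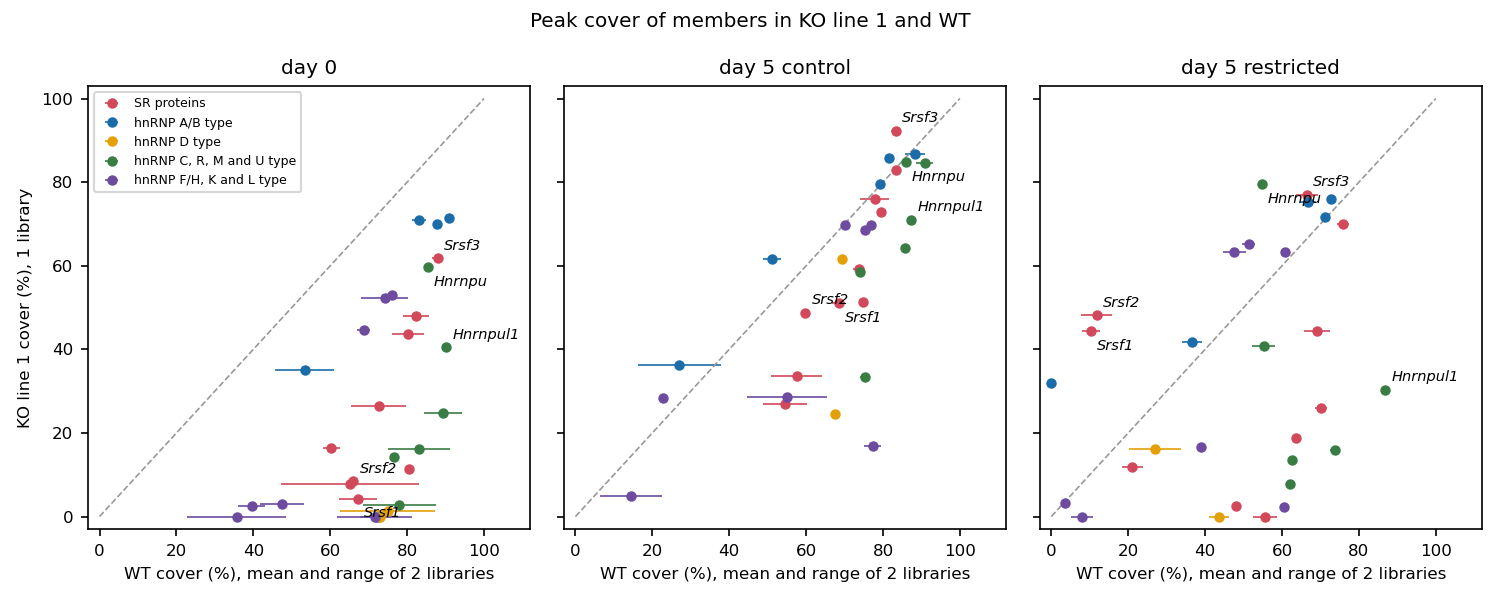
Cover of the 30 tested members in KO line 1 (vertical axes, percent, 1 library) against WT (horizontal axes, percent, point at the mean and bar over the range of 2 libraries) at day 0, day 5 control and day 5 restricted, coloured by role; the dashed line marks equal cover. All points lie below the line at day 0, and under restriction at day 5 Srsf1, Srsf2 and Hnrnpu lie above it while Hnrnpul1 lies below.

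The 5 peaks of KO line 2 that touched members, all at day 5 in control medium, were short and lay near gene starts. They measured 0.314 to 0.737 kb, had a deposited −log10 q of 1.24 to 2.05, and lay on SR genes: Srsf1, Srsf2, Srsf4, Srsf5 and Srsf7. On Srsf7 the peak ran from 0.089 kb before the gene start to 0.329 kb after it, and on Srsf5 from 0.033 to 0.347 kb after it. None of the hnRNP genes had a peak in this library, in which 13.7% of all genes tested had one over their body, so 5 of 30 members is near the background. Of the 29 members with a promoter window in the RefSeq table, 250 bases before to 50 after a transcript start, 4 had a window touched by a peak, Srsf1, Srsf2, Srsf5 and Srsf7, against 8.44% of 7711 tested genes. In the WT libraries 0 or 1 of the 29 did, against 2.06% to 5.46% of tested genes. In this KO line 2 library 60.7% of the tested genes with any peak over their body had one in the promoter window, against 2.25% to 5.55% in the WT libraries, so the position is shared by the library as a whole.

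These 4 windows are shown because they are the members' promoters touched by KO line 2 peaks, where WT libraries had none; in KO line 1 that of Hnrnpa2b1 alone was touched, at day 5 under restriction, and it was touched in no WT library. They come from RefSeq GRCm38.p6, are written 5′ to 3′ on the gene's strand, and have in capitals the bases inside the KO line 2 peak of day 5 in control medium, which are 54, 139, 21 and 203 of 300 bases. They lie at chr11:88047123-88047422 (plus strand), chr11:116853045-116853344 (minus), chr12:80945249-80945548 (plus) and chr17:80207256-80207555 (minus).
Srsf1: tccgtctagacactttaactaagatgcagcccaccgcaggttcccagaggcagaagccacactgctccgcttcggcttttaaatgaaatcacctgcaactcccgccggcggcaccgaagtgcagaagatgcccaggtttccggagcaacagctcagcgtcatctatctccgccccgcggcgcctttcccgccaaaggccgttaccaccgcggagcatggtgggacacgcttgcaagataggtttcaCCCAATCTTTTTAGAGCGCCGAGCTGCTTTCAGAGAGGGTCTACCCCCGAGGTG
Srsf2: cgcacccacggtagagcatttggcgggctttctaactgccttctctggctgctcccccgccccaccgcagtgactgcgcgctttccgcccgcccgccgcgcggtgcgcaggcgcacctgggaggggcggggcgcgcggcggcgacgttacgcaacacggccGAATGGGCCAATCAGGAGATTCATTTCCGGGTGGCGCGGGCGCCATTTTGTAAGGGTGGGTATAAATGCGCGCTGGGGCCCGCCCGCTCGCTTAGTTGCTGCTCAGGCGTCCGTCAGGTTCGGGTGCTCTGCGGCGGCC
Srsf5: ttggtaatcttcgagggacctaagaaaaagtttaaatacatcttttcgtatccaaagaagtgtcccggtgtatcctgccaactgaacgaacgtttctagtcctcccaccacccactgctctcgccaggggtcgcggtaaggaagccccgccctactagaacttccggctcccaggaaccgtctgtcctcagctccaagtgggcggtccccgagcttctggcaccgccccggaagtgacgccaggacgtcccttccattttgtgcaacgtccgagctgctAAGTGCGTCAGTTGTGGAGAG
Srsf7: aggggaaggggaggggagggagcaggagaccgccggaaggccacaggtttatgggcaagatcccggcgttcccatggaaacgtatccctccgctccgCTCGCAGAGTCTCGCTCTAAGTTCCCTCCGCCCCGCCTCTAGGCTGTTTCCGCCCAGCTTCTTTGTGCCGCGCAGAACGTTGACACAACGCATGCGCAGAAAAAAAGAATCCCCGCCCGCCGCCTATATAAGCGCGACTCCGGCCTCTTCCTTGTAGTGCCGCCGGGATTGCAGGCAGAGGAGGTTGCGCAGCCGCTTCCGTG
The windows hold 22, 39, 20 and 28 CG pairs, against a median of 31 over the 41 windows of members and of 7 over all 32851 windows of the table. A CCAAT box, searched as CCAAT or its reverse complement ATTGG, is in the windows of Srsf1 and Srsf2, in 51.2% of the members' windows and in 37.4% of all windows. TATAAA or its reverse complement TTTATA is in that of Srsf2, in 9.76% of the members' windows and in 13.6% of all. A match of letters is a description and shows no binding.

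Other genes of the splicing pathway were counted on lists chosen by function. Of the core spliceosome, 13 of 44 tested genes were lower and 0 higher at day 1, and 16 lower and 4 higher at day 5. Beside these and the counts that follow stand the shares over all genes tested, 36.0% lower at day 1, and 41.5% lower and 4.32% higher at day 5, so the core spliceosome's counts of lower genes were no larger a share than the background. Among its genes higher at day 5, Slu7, a factor of the late splicing step, had cover of 60.8% and 61.3% in control and 80.8% and 75.6% in restricted medium (limma adjusted p = 0.002), and Prpf31, which overlaps other genes over 91.3% of its body, had 21.8% and 29.7% against 52.6% and 49.7%. Of the 10 genes of SR kinases and the SR importer, 4 were lower at day 1 and 5 at day 5, among them Srpk2 at day 5 (-14.2 points, limma adjusted p = 0.00642). Of 15 SR-related proteins 9 and 6 were lower, and of 8 tested arginine methyltransferases, which modify hnRNPs, 3 and 4; none was higher. Of 26 other splicing regulators 17 and 20 were lower. Rbm24, a muscle splicing regulator, had 87.0% and 84.3% in control and 18.2% and 17.8% in restricted medium at day 5 (-67.6 points, SE 3.29, limma adjusted p = 6.18e-06), and Qk, another one, had 74.9% and 63.6% against 5.28% and 8.24%. Both lost more cover than any SR or hnRNP gene at this day.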

How the data were processed

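H3K36me3 ChIP-seq (75 nt single-end reads, per the labels' protocols) was deposited as 20 broad-peak lists, 1 per library, on GRCm38, per the submitters' processing notes; the peak caller and the handling of spike-in and input are not given in the sources used here. The deposited columns hold a score (not used), the authors' fold enrichment as a ratio, and −log10 p and −log10 q values per peak; the lowest −log10 q was 1.00. In the KO lists the peak names read as replicates of 1 KO group, while the labels name 2 lines, which were followed here. Input was not used here.

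Peaks were merged within each list and the percent of each gene body covered was computed with Python 3.11.15, numpy 2.4.6 and pandas 2.3.3 over RefSeq GRCm38.p6 genes. Cover was fitted with limma 3.58.1 in R 4.3.3 (trend and robust, 5 WT groups) with Benjamini-Hochberg adjustment; the code was tested on simulated data. Differences are in points of percent cover and fold enrichment served to rank peaks within a list alone. KO values have no test. Named with values in all WT libraries are up to 4 called members per contrast and direction with the largest difference and no overlap, the 3 highest and 3 lowest in WT, and the 3 highest in KO line 1; others appear as ranges or short values. Members and lists were chosen with earlier results of these data known. Alternatives changed the q threshold, list length, centring, gene body, filters, scale, block and libraries.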

Additional observations from a re-analysis of the deposited data

Results flagged for a closer look

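Hnrnpul2 stood out because its restriction effect differed between days by the test of that difference, 23.98 points of cover (limma adjusted p = 0.0148, higher in both restricted libraries of day 5 than in both of day 1). The call was lost under 5 of 17 alternatives, each of which left out 1 library. It is 1 of 30 members, beside 1.62% of all genes tested.

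For some members both WT libraries of the later day lay below both of day 0 while the KO line 1 library of that day lay above its day 0 library; in WT only Hnrnpa0 and Hnrnpf from day 0 to day 5 passed the test. From day 0 to day 1 in control medium these were Hnrnpa2b1, Srsf2 and Srsf6, with KO line 1 differences of 2.72, 1.48 and 7.82 points and WT differences of -5.32, -3.29 and -0.96 points that did not pass (limma adjusted p = 0.347, 0.672 and 0.855). From day 0 to day 5 they were Hnrnpdl, Hnrnpul2, Srsf2 and Hnrnpa0, with 61.7, 44.2, 40.4 and 36.3 points, Srsf3, Hnrnpul1 and Hnrnpf, with 30.5, 30.4 and 25.8 points, and Hnrnpa2b1, Hnrnpl, Hnrnpa1 and Hnrnph2, with 15.8, 15.6, 8.54 and 4.90 points. The WT differences to day 5 were -44.9 points for Hnrnpa0 and -16.8 for Hnrnpf, and for the other 9, which did not pass, they ran from -21.2 points at Hnrnph2 (limma adjusted p = 0.0857) to -0.77 at Hnrnpl (0.896). These differences between WT and KO line 1 were not tested, since KO line 1 has 1 library per condition, and all 30 members were higher at day 5 than at day 0 in that line. In WT alone, both libraries of day 1 lay below both of day 0 for 7 of 30 members, beside 49.3% of all genes tested. To day 5 this held for 11 of 30, beside 36.1%, so the WT count to day 5 is near the background.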

How the results depend on the processing

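With each library's median subtracted, 10 members were called at day 1 under restriction, 8 at day 5 and 2 for the difference between days. On that scale the differences of Srsf6 and Hnrnpul1 at day 1 became 2.32 and 6.01 points, and those of Srsf6, Hnrnpa2b1, Hnrnpab and Hnrnpk at day 5 became 7.30, 6.17, 1.25 and 0.70 points; the cause was not tested. With lists matched in length, 2 members were called for the difference between days, 0 from day 0 to day 1 and 1 from day 0 to day 5. The count from day 0 to day 1 was also 0 at a −log10 q of at least 3, with each library's median subtracted, on the arcsine scale, without the filter and with the compared libraries alone, where that to day 5 was 1. Leaving out libraries gave 11 to 13 calls at day 5 under restriction, 0 to 1 for the difference between days, 0 to 3 from day 0 to day 1, 1 to 3 from day 0 to day 5, and medians of -6.22 to -1.05 points from day 0 to day 1, -5.66 to 0.37 from day 0 to day 5 and 2.95 to 10.04 for the difference between days.

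The number of marked members moved with its threshold. At 75% cover, it was 14 at WT day 0, 12 in control and 1 in restricted medium at day 1, and 15 and 2 at day 5; in KO line 1 it was 0 at day 0, 0 in day 1 control cells, and 8 and 4 in control and restricted cells of day 5. At 25% it was 23 at WT day 1 under restriction, 13 at day 0 in KO line 1 and 17 at day 5 under restriction in KO line 1. At a −log10 q of at least 3 KO line 1 had 4 at day 0 and 5 in day 1 control cells. KO line 2 kept 0 under these 3 settings. Under that q threshold 13 members lay below both WT libraries in both KO lines, beside 49.0% of all genes tested.

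Replicate numbers did not pair the libraries: over 10 pairs of groups the correlation of deviations ran from -0.439 to 0.061. With the replicate number as a block the called members were 23 and 16 under restriction at day 1 and day 5, 1 for the difference between days, and 1 and 2 from day 0. The lists hold no counts, so what depth limits could not be computed, and a gene at 0 may hold mark below the peak threshold.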
